A study of Drosophila melanogaster with 12 samples.

Results

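Lsp2, Fbp1 and Fbp2 are genes of the Drosophila larval fat body whose messages were measured here in whole adult females. They were chosen by name, as array rows annotated to that gene symbol alone, and each was read by 1 probe set. They are 3 of the 11982 genes on the array with a probe set of their own. Their values on all 12 arrays of the series are described.

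Lsp2 encodes larval serum protein 2, a hexamerin. Hexamerins are large storage proteins that the fat body secretes into the hemolymph of the feeding larva and takes back before metamorphosis, as a reserve of amino acids for building the adult. Fbp1 encodes fat body protein 1, a hexamerin relative that serves as the receptor for this uptake, and Fbp2 encodes a fat body protein related to alcohol dehydrogenase. These genes are classical targets of the molting hormone ecdysone at the end of larval life. Juvenile hormone (JH), made by the corpora allata, acts against ecdysone in the larva and drives yolk production and egg maturation in the adult female.

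The study asked about juvenile hormone deficiency and lifespan, and its arrays compared expression with and without corpora allata in fertile females and in females that make no eggs. CAKO females carried the Aug21-Gal4 driver with UAS-GFP and expressed UAS-NIPP1, an inhibitor of protein phosphatase type 1, in the corpora allata, which ablates the gland. Wildtype females carried neither construct by their label. OvoD1 females carried a dominant female-sterile mutation that stops oogenesis early and kept their corpora allata, and CAKO;OvoD1 females carried both the ablation and the mutation. Each genotype had 3 arrays of RNA from pooled whole females. The methods call the arrays of a genotype independent biological replicates and state 25 females for each genotype, without saying whether every array had its own 25. The age is given as 15 days in the sample labels and as 14 days in the protocol. The ablation rests on 1 driver, and by the study's text its completeness can vary from female to female. The fertile genotypes are described as wDAH and both OvoD1 genotypes as a cross of w1118 and wDAH in the figure legend, whereas the design text deposited with the arrays names the cross for wildtype too. A difference between fertile and sterile females therefore cannot be told apart from a difference in background. If wildtype was the cross and CAKO was wDAH, the same holds for CAKO against wildtype. No array came from females with the driver or UAS-NIPP1 alone by the labels. Below, the effect of losing the corpora allata therefore includes any effect of the constructs themselves.

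Values are log2 expression values after GC-RMA, a background adjustment that uses probe sequence. The lowest value on every array was 2.13, the floor of this adjustment, and a value within 0.2 of it is called at the floor. On each array 46.6% to 47.5% of probe sets were at the floor, and the median probe set read 2.86 to 2.92. The labels were checked with jhamt, a methyltransferase gene of JH synthesis, and with the germ line gene ovo. jhamt was lower without corpora allata in fertile females (log2 fold change -1.53, adjusted p = 0.00213, limma) and in sterile females (-2.34, adjusted p = 4.87e-04), and ovo was lower in OvoD1 than in wildtype by a factor of 16.7. However, jhamt was also higher in OvoD1 than in wildtype (1.99). Its mean in CAKO;OvoD1 (4.30) was therefore above that in CAKO (3.13) and was not called different from wildtype (4.65). In RNA of whole flies, fewer cells of a type and less RNA per cell cannot be told apart.

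Lsp2 message spanned 10.23 log2 units between its lowest and highest genotype mean, the 6th widest span of 9968 genes tested. The wildtype arrays read 4.34, 4.05 and 3.14, a mean of 3.84 ± 0.63 (SD, n = 3). These are the lowest values of the series and lie 1.00 to 2.21 above the floor. The CAKO arrays read 8.06, 8.50 and 8.04, a mean of 8.20 ± 0.26 (SD, n = 3). The CAKO;OvoD1 arrays read 13.08, 13.43 and 12.66, a mean of 13.06 ± 0.38 (SD, n = 3). The OvoD1 arrays read 14.09, 14.16 and 13.95, a mean of 14.07 ± 0.10 (SD, n = 3). The order was therefore wildtype, CAKO, CAKO;OvoD1 and OvoD1, and no array of one genotype reached the range of another. In 10.8% of the genes tested, too, none of the 4 genotypes overlapped another, and 91 genes (0.913%) had this same order without overlap.

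**Figure D1:**
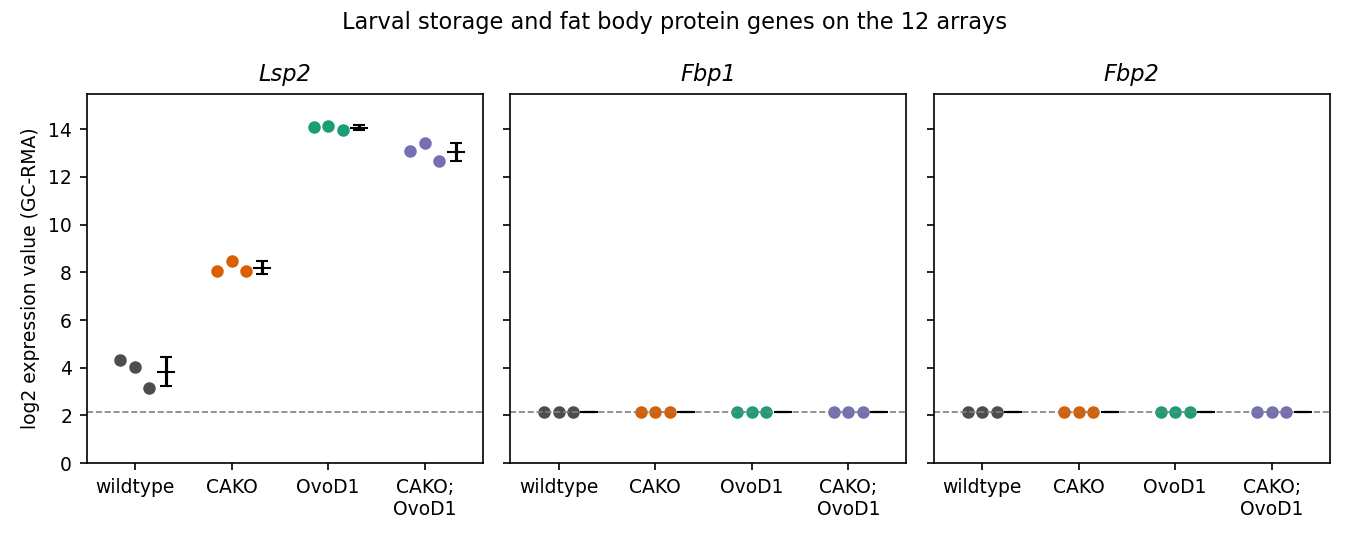
Log2 expression value (vertical axis) of Lsp2, Fbp1 and Fbp2 on each of the 12 arrays, by genotype, with the mean and SD beside the points, and the floor as a dashed line. Lsp2 stepped from a mean of 3.84 in wildtype to 14.07 in OvoD1, while Fbp1 and Fbp2 lay at the floor on all 12 arrays.

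Back on the linear scale, mean Lsp2 signal was 15.2 ± 5.84 (SD, n = 3) in wildtype and 297 ± 55.6 in CAKO. It was 8727 ± 2277 in CAKO;OvoD1 and 17191 ± 1217 in OvoD1. In fertile females the mean without corpora allata was thus 282 signal units higher, and in sterile females the difference was -8465 units. Both fertile means lay far below both sterile means.

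In fertile females, Lsp2 was 20.5-fold higher without corpora allata than with them (95% interval 12.7 to 33.1). The wildtype values in this ratio lie near the floor, and how far it depends on the background adjustment was not tested. The log2 fold change was 4.36 (SE 0.30, adjusted p = 4.14e-05, limma), and every CAKO array lay above every wildtype array. Only 3 of the 9968 genes tested had a higher value in this comparison. A gene was called at an adjusted p under 0.05 and a change of at least 1.5-fold, and 4.01% of genes were called higher and 2.43% lower here. The ranges of the 2 genotypes did not overlap in 32.8% of genes. The central 98% of genes lay between -1.50 and 1.30 on the log2 scale.

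In sterile females the difference ran the other way and was not called. Lsp2 was 2.01-fold lower in CAKO;OvoD1 than in OvoD1 (log2 fold change -1.01, SE 0.30, 95% interval -1.70 to -0.32, adjusted p = 0.0708, limma), where 2.3% of genes were called lower and 2.37% higher. The 3 arrays of CAKO;OvoD1 all lay below those of OvoD1, as also happened without overlap, in either direction, in 30.5% of genes. The call depends on the processing and was made in 5 of 25 alternatives, among them each array centred on its median (-1.04, adjusted p = 0.0438), each array centred on muscle and photoreceptor genes (-1.26, adjusted p = 0.00315) and wildtype replicate 3 left out (-1.01, adjusted p = 0.0187). That array takes part only through the shared estimate of spread. Across the alternatives of this comparison the p ranged from 0.00315 to 0.203. The value stayed between -1.26 and -0.81.

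**Figure D2:**
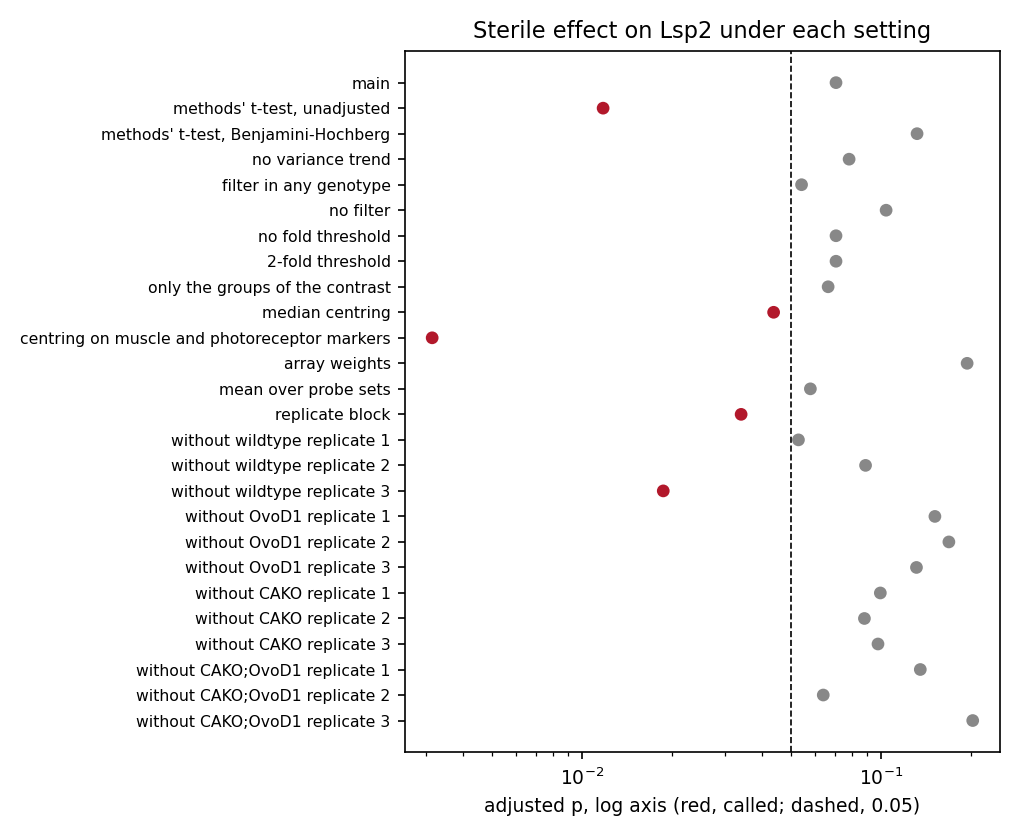
Adjusted p (log axis, unadjusted for the methods' t-test without adjustment) of Lsp2 in CAKO;OvoD1 against OvoD1 under each way of processing, with called settings in red and the threshold of 0.05 as a dashed line. The main analysis lies at 0.0708, and 5 of 25 alternatives fall below it.

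The effect of losing the corpora allata differed between fertile and sterile females. The interaction, which is the sterile effect minus the fertile effect, was -5.37 on the log2 scale (SE 0.43, 95% interval -6.35 to -4.39, adjusted p = 4.08e-04, limma). It was the lowest value of all 9968 genes tested, of which 2.34% were called lower, 1.44% higher and 3.78% in either direction. As linear signal the sterile difference minus the fertile one was -8747 units, which was not tested. Most of it is the sterile difference of -8465 units, which was not called on the log2 scale. Its sign therefore adds nothing to the interaction on the log2 scale. The interaction kept its call in 22 of 22 alternatives, with values between -5.62 and -5.02. It also uses the wildtype values near the floor, and how far its size depends on the background adjustment was not tested.

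**Figure D3:**
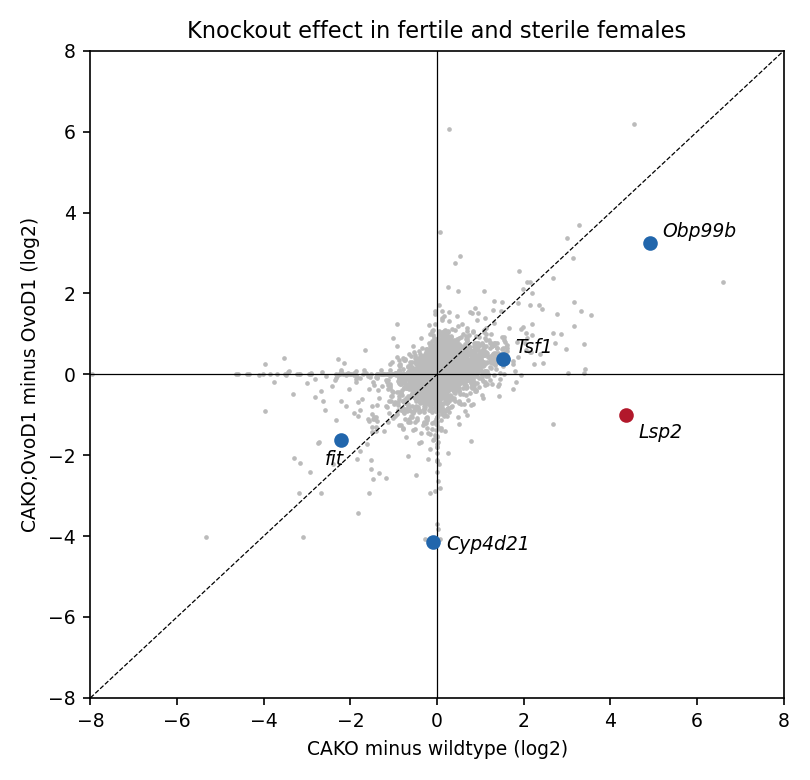
Log2 fold change without against with corpora allata in fertile females (horizontal axis) and in sterile females (vertical axis), 1 point for each gene tested, with Lsp2 in red, 4 adult fat body genes in blue and a dashed line of equal effects. Lsp2 lies far to the right at 4.36 and slightly below 0 at -1.01.

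Lsp2 was higher in sterile than in fertile females, with or without corpora allata. With the glands in place it was 1197-fold higher in OvoD1 than in wildtype (95% interval 741 to 1933). This log2 fold change of 10.23 (SE 0.30, adjusted p = 5.59e-09, limma) was the highest of all 9968 genes, of which 25.2% were called higher and 28.6% lower. The wildtype values lie near the floor, and how far this ratio depends on the background adjustment was not tested. The linear difference was 17176 signal units. Without the glands Lsp2 was 29.0-fold higher in CAKO;OvoD1 than in CAKO (log2 fold change 4.86, SE 0.30, adjusted p = 6.26e-07), the 3rd highest value, where 25.7% of genes were called higher and 26.6% lower. In neither comparison did the arrays overlap, as was true of 73.9% and 74.1% of genes. Both comparisons kept their call in 25 of 25 alternatives. The OvoD1 comparison shares its wildtype arrays with the fertile comparison and its OvoD1 arrays with the sterile one. The full set of calls seen for Lsp2, namely higher in fertile CAKO, not called in the sterile pair, a lower interaction and higher in both comparisons of sterile with fertile females, was found in 104 of the 9968 genes.

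**Figure D4:**
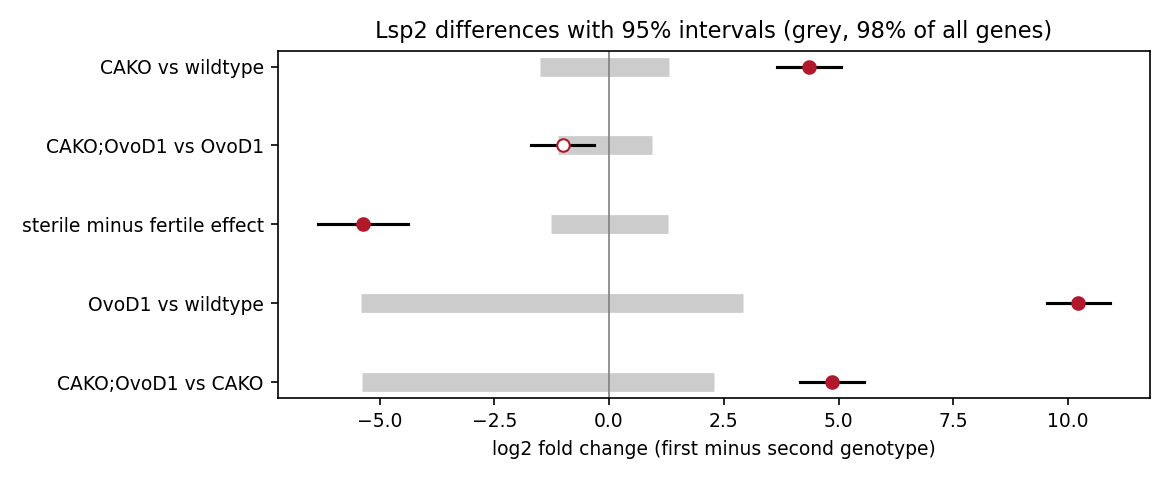
Log2 fold change of Lsp2 in 5 comparisons (filled circle, called, open circle, not called) with its 95% interval as a line, and in grey the range from the 1st to the 99th percentile of all genes tested. The sterile effect at -1.01 lies inside that range, and the fertile effect at 4.36, the interaction at -5.37 and both comparisons of sterile with fertile females lie outside it.

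Fbp1 and Fbp2 gave no signal above the floor on any array. The highest of the 12 values of Fbp1 was 2.14, on 1 CAKO;OvoD1 array, and lay 0.00184 above the floor. For Fbp2 the highest value lay 0.0112 above the floor, on 1 OvoD1 array. Both genes passed the filter on low values only through that single array, so neither a fold change nor a correlation with Lsp2 is given for them, and neither was called in any comparison. In all, 3335 genes (27.8%) were at the floor on every array. At the floor the arrays give no order of genotypes, so whether the uptake receptor gene and the alcohol dehydrogenase relative followed the course of Lsp2 was not detectable here. Lsp1alpha, Lsp1beta and Lsp1gamma, which encode the subunits of the other larval serum protein, were not analysed here.

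The 3 genes lie apart in the genome. By the RefSeq annotation of the Release 6 assembly, Lsp2 and Fbp1 are on arm 3L and Fbp2 is on arm 2L. Lsp2 overlaps an annotated antisense RNA, asRNA:CR11538, and whether its probe set also detects that RNA was not tested. The nearest tested gene before Lsp2 is the receptor gene Ir68b, with 2 genes between, which was at the floor in every genotype. The nearest after it is DEF8, which was not called in any comparison (OvoD1 against wildtype 0.26 on the log2 scale, adjusted p = 0.0182, under 1.5-fold). Beside Fbp1, the transcription factor gene Sox21a was higher in OvoD1 than in wildtype (1.04, adjusted p = 5.50e-04), and CG8100 was at the floor in every genotype. Beside Fbp2, the multicopper oxidase gene Mco1 was higher in OvoD1 (1.14, adjusted p = 2.16e-05) and in CAKO;OvoD1 against CAKO (1.19, adjusted p = 1.78e-05), and FucTB was not called.

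The 5 genes whose log2 values ran most like those of Lsp2 over the 12 arrays were CCHa2, CG10516, Cyp6a9, CG10621 and AdipoR. CCHa2 encodes a peptide hormone of the fat body and gut that acts on the insulin-producing cells, AdipoR encodes the adiponectin receptor homolog and Cyp6a9 a cytochrome P450. Their Pearson correlations with Lsp2 were 0.992 to 0.995, among 4466 genes whose genotype means spanned at least 1 log2 unit. The arrays fall into 4 genotypes and 412 genes exceeded 0.95, so this likeness mainly describes the order of the genotype means. Within genotypes the correlations of these genes with Lsp2 were -0.38 to 0.49. CCHa2 means were 9.29 in wildtype, 10.51 in CAKO, 12.02 in CAKO;OvoD1 and 12.16 in OvoD1, a narrower range than that of Lsp2. Because these genes were picked for their likeness to Lsp2, their values are given as a description.

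**Figure D5:**
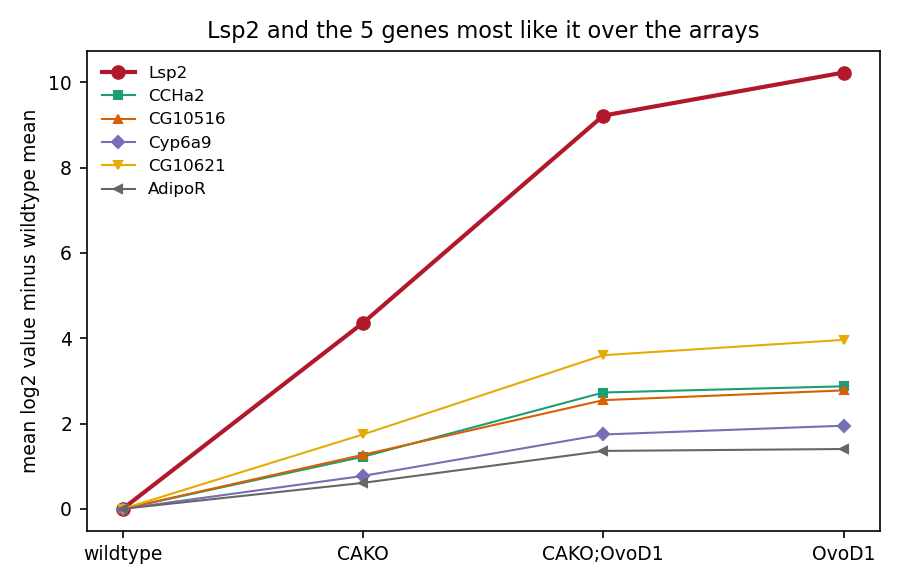
Mean log2 expression value of each genotype minus the wildtype mean of the same gene (vertical axis), for Lsp2 and the 5 genes with the highest correlation to it. All 6 genes stepped up from wildtype to CAKO and to both OvoD1 genotypes, and Lsp2 had the widest range.

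Adult fat body genes were set beside Lsp2 because the adult fat body is a tissue in which it could be transcribed. Of 18 genes listed, 16 were tested. In fertile females 2 were higher without corpora allata and 5 lower (median -0.14, against 0.00 over all genes, of which 6.44% were called in either direction). Obp99b, an odorant-binding protein gene, was higher (4.91, adjusted p = 2.49e-04), and so was Tsf1, the iron carrier transferrin (1.51, adjusted p = 2.15e-05). The female-specific fat body gene fit was lower (-2.22, adjusted p = 0.00173). In sterile females 1 was higher and 4 were lower (median -0.25), where 4.66% of all genes were called. Obp99b was higher there too (3.24), and the cytochrome P450 gene Cyp4d21 (-4.14, adjusted p = 3.35e-05) and fit (-1.63) were lower. Members of the adult fat body list thus moved in both directions when the corpora allata were lost, and Obp99b was higher in both pairs.

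Compared with wildtype, OvoD1 females had 8 of the 16 adult fat body genes higher and 0 lower (median 0.57), where 53.8% of all genes were called. Cyp4d21 (5.53), Obp99b (4.24) and fit (3.07) rose most. The wildtype mean of Cyp4d21 (2.35) lay near the floor, and how far its rise depends on the background adjustment was not tested. Without corpora allata 10 were higher and 0 lower (median 0.83, with 52.2% of all genes called), among them fit (3.65) and Obp99b (2.57). These counts depend on the scaling. With arrays centred on muscle and photoreceptor genes, 4 were higher and 1 lower with corpora allata (median -0.18) and 3 were higher and 4 lower without (median -0.04). With median centring 14 were higher in both comparisons (medians 0.94 and 1.19). The mean level of the list ran from 11.80 to 11.94 in wildtype, 11.84 to 12.01 in CAKO, 12.77 to 12.86 in CAKO;OvoD1 and 13.10 to 13.29 in OvoD1. The genotype order of these mean levels was that of Lsp2, but the wildtype and CAKO arrays overlapped. The median change of the list from wildtype to CAKO was -0.14, with 5 genes called lower and 2 higher. Obp99b, 1 of those higher, rose from 4.16 to 9.07. The order was not examined under other scaling. The part of this list in the result for Lsp2 was not tested.

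Marker genes of hemocytes, the blood cells of the fly, were also measured. Of 9 marker genes, 4 were higher in CAKO than in wildtype and 1 was lower (median 0.66), where 6.44% of all genes were called. The prophenoloxidase genes PPO1 (1.02, adjusted p = 0.0197) and PPO2 (0.87, adjusted p = 0.00489) and the scavenger receptor gene Sr-CI (0.98, adjusted p = 0.00232) rose. The 1 called lower, named after its values were seen, was NimC1, a phagocytosis receptor gene (mean 6.18 in wildtype and 5.59 in CAKO). The call of PPO1 was lost when wildtype replicate 1 (adjusted p = 0.0612), wildtype replicate 3 (0.0592), CAKO replicate 1 (0.0657) or CAKO replicate 2 (0.0714) was left out. Across 25 alternatives the call of PPO1 was lost in 6, that of PPO2 in 3 and that of Sr-CI in 2. In sterile females 0 were higher and 1 was lower, again NimC1 (-1.05, adjusted p = 5.95e-04), where 4.66% of all genes were called. In OvoD1 against wildtype 7 were higher and 0 lower (median 2.31, with 53.8% of all genes called), led by the phagocytosis receptor gene eater (3.27), PPO1 (3.10) and NimC1 (2.89). Without corpora allata 7 were higher and 0 lower (median 1.92, with 52.2% of all genes called). With arrays centred on muscle and photoreceptor genes, 7 were higher and 2 lower with corpora allata (median 1.56). Without corpora allata 6 were then higher and 2 lower (median 1.05). With median centring 7 and 8 were higher (medians 2.69 and 2.28). The mean level of the 9 markers ran from 5.25 to 5.36 in wildtype, 5.55 to 5.80 in CAKO, 7.26 to 7.45 in CAKO;OvoD1 and 7.31 to 7.47 in OvoD1. The part of hemocytes in the result for Lsp2 was not tested.

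Of 17 regulators of the fat body and of the hormone signals that were tested, 0 were higher and 3 lower in fertile females without corpora allata (median -0.16), where 2.43% of all genes were called lower. In sterile females none was called, where 4.66% of all genes were, but 1 was lower with median centring and 4 were lower with centring on muscle and photoreceptor genes. Kr-h1, the zinc finger gene induced by JH, fell by 1.77 on the log2 scale in CAKO (adjusted p = 0.00106) and dsx, a sex determination factor, fell by 1.02 (adjusted p = 0.00132). The 3rd, named after its values were seen, was br, an ecdysone-induced factor, which was called through a probe set other than its brightest. With the mean over its probe sets dsx was not called (-0.64, adjusted p = 0.143). In OvoD1 against wildtype 5 regulators were higher and 3 lower (median 0.23), where 53.8% of all genes were called. Blimp-1 (1.84) and svp (1.08), transcription factor genes, and dsx (1.39) rose, and the brightest probe set of EcR, the ecdysone receptor, was not called (-0.01). The 3 called lower, named after their values were seen, were usp, ftz-f1 and br. The mean of usp was 9.92 in wildtype and 8.87 in OvoD1, and that of ftz-f1 was 11.40 and 10.35. For br the call came through a probe set other than its brightest. With arrays centred on muscle and photoreceptor genes svp was not called (0.32, adjusted p = 0.0535), and 2 regulators were higher and 10 lower (median -0.53). With median centring 9 were higher and 2 lower (median 0.60).

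Genes of fat body remodelling and cell death were taken because the larval fat body is dissolved by programmed cell death in the young adult. Of 7 tested, none was called in fertile females, in sterile females or for the interaction. Of all genes 6.44%, 4.66% and 3.78% were called there, so few calls would be seen in a list of this size. In sterile females 1 was lower with median centring and 2 with centring on muscle and photoreceptor genes. In OvoD1 against wildtype 2 were higher and 2 lower, a share near the 53.8% of all genes called. Timp, an inhibitor of metalloproteinases, rose (1.39, adjusted p = 1.95e-08), and the caspase genes Dronc (-1.24, adjusted p = 2.14e-04) and Dcp-1 (-1.12, adjusted p = 4.46e-07) fell. The list median was -0.26. It was 0.11 with median centring (3 higher, 2 lower) and -1.02 with centring on muscle and photoreceptor genes (1 higher, 4 lower).

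Most of the listed genes of other larval tissues stayed near the floor. Of 14 with a probe set, 12 were at the floor on all 12 arrays, and the mean level of the list was 2.25 to 2.46 over all arrays. None of the 6 tested was called in fertile or sterile females, where 6.44% and 4.66% of all genes were called. The exception in the OvoD1 comparisons was Pcp, a pupal cuticle protein gene (1.90 with corpora allata, adjusted p = 2.71e-04, and 2.08 without, adjusted p = 1.51e-04). In these comparisons 25.2% and 25.7% of all genes were called higher. Pcp lay above the floor, with means of 4.58 in wildtype, 4.05 in CAKO, 6.13 in CAKO;OvoD1 and 6.48 in OvoD1.

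Markers of other adult tissues moved with the genotypes in the same comparisons. Germ line markers fell in 7 of 7 genes in OvoD1 against wildtype (median -4.13) and eggshell markers in 10 of 10 (median -9.54), where 28.6% of all genes were called lower. All 10 eggshell markers had lower means in CAKO than in wildtype (median -2.61). In the main fit 5 were called lower, where 2.43% of all genes were. With median centring 9 were called lower, and 10 with centring on muscle and photoreceptor genes. Their mean level ran from 9.37 to 11.83 in CAKO and from 12.91 to 13.60 in wildtype. Of 9 muscle markers, 2 were higher in CAKO than in wildtype, where 4.01% of all genes were called higher. In OvoD1 against wildtype 6 were higher (9 with median centring), where 25.2% of all genes were in the main fit. Among 10 male accessory gland markers 9 were at the floor on all arrays. The part of these tissues in the result for Lsp2 was not tested.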

How the data were processed

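RNA of whole females was hybridized to Affymetrix Drosophila 2.0 arrays, 3 per genotype. Quantile normalization and GC-RMA (its version is not given in the sources used here) were run by the authors, and the deposited log2 values entered every step unchanged. The array holds 18952 probe sets, of which 13647 name a single gene, 402 several genes and 4903 no gene, and 13544 matched the RefSeq gene table. The 5081 probe sets in the first quartile (25%) of the genotype mean in all 4 genotypes were left out and 13871 kept. The methods give this filter without saying in how many genotypes it applied. A gene's printed value comes from its probe set with the highest mean, and a gene counts as called when any probe set of it was called and no other was called the opposite way.

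R 4.3.3 with limma 3.58.1 (lmFit on 4 groups, eBayes with a trend, 8 residual degrees of freedom) gave log2 fold changes, standard errors and two-sided p-values, with Benjamini-Hochberg adjustment in each comparison across the probe sets kept. The fit was tested on simulated data in which mid-range probe sets were changed in CAKO alone. That test did not cover changes near the floor or the interaction. The methods call the samples independent biological replicates, but nothing says that they came from separate cages, so p-values measure only the spread between these samples. Precision is limited by the number of arrays: an exact permutation test of 3 against 3 cannot go below p = 0.1. The members and lists were chosen with earlier results of these data known. Named genes are the larval storage genes, up to 3 called members of each list with the largest change, the 5 genes most like Lsp2, the nearest neighbours, jhamt and ovo. The midgut, photoreceptor and alcohol dehydrogenase lists appear in the closing section. Alternatives were the methods' t-test, no trend, other filters and fold thresholds, fits of 2 genotypes, other centring, array weights, the mean over probe sets, a replicate block and leaving out each array. A planned search for promoter motifs was not run, and no sequence is shown.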

Additional observations from a re-analysis of the deposited data

Results flagged for a closer look

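The effect of losing the corpora allata differed between fertile and sterile females, by the test of the interaction in limma (sterile minus fertile effect, log2 scale), for the genes given here, where 3.78% of all genes were called. Of these, 5 were picked for their likeness to Lsp2. For Lsp2 the difference was -5.37 (adjusted p = 4.08e-04). Among the adult fat body genes it was -4.06 for Cyp4d21 (adjusted p = 4.34e-04) and -1.13 for Tsf1 (adjusted p = 0.00255). Cyp4d21 was at the floor on all CAKO arrays (mean 2.26) and near it in wildtype (2.35). A fall in fertile females could therefore not be measured for it. Among the hemocyte markers the difference was -0.86 for Sr-CI (adjusted p = 0.0486) and -0.75 for Hml, the hemolectin gene (adjusted p = 0.036). The call of Sr-CI was lost in 16 of 22 alternatives and that of Hml in 13 of 22, including most of those that leave out 1 array, with adjusted p up to 0.104 and 0.0838. For Kr-h1 the difference was 1.67 (adjusted p = 0.0209), the only positive one among these genes. Kr-h1 changed by -1.77 in fertile and by -0.10 in sterile females. Its interaction call was lost when OvoD1 replicate 2 (adjusted p = 0.0513), OvoD1 replicate 3 (0.0502) or CAKO replicate 1 (0.0559) was left out. The 5 genes like Lsp2 share its pattern by that choice: CCHa2 had -1.37 (adjusted p = 2.19e-04), CG10516 -1.50 (0.00215), Cyp6a9 -0.98 (8.60e-05), CG10621 -2.10 (2.19e-04) and AdipoR -0.65 (0.0019).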

How the results depend on the processing

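The difference of Lsp2 in fertile females kept its direction and its call in 25 of 25 alternatives (4.01 to 4.61), as did both comparisons of sterile with fertile females (9.47 to 10.60 and 3.99 to 5.22). The lower level in the sterile pair became called with the methods' t-test before adjustment (-1.01), with median centring (-1.04), with centring on muscle and photoreceptor genes (-1.26), and with the replicate block (-1.01, adjusted p = 0.0341). Leaving out 1 array at a time gave -1.20 to -0.81, called only without wildtype replicate 3. In the main fit 642 genes were called in fertile females, 465 in sterile females and 377 for the interaction. With the methods' t-test after Benjamini-Hochberg adjustment there were 232 and 148 in the first 2. With no fold threshold there were 1565, 1299 and 643, and with a 2-fold threshold 295, 175 and 189. Centring on muscle and photoreceptor genes gave 959 in sterile females. It moved the share of calls that were higher from 62.3% to 40.5% in fertile females, from 50.8% to 13.3% in sterile females, from 38.2% to 20.9% for the interaction, from 46.8% to 15.0% for OvoD1 against wildtype and from 49.1% to 9.83% for the pair without corpora allata. Median centring moved the last 2 to 61.8% and 64.3%. This centring shifted all values by -0.01, -0.03, -0.01, 0.37 and 0.36, and that on 14 muscle and photoreceptor genes by -0.14, -0.25, -0.11, -0.76 and -0.87, in the same order of comparisons. Same-numbered arrays did not deviate together (correlations of deviations -0.16 to 0.15), so the replicate numbers do not pair the samples. Of 43 named members of the lists, each in 1 comparison, 29 kept their call in all alternatives run and 14 lost it in at least 1, and 0 reversed. Levels within 0.2 of the floor have no order, which limits Fbp1 and Fbp2 on all arrays and Cyp4d21 on the CAKO arrays. The causes of these changes were not tested.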

Other observations

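The levels of 3 more lists were measured on the same arrays. Of 8 midgut marker genes, 2 were lower in CAKO than in wildtype (median -0.35), 4 were lower in CAKO;OvoD1 than in OvoD1 (median -0.62), and 5 were higher in OvoD1 than in wildtype (median 1.64). Of all genes 2.43% and 2.3% were called lower in the first 2 comparisons, and 25.2% were called higher in the last. Their mean level ran from 10.59 to 11.07 in CAKO and from 13.64 to 13.69 in OvoD1. Of 5 photoreceptor marker genes none was called in fertile or sterile females, where 6.44% and 4.66% of all genes were. In OvoD1 against wildtype 3 were higher (median 0.75), where 25.2% of all genes were called higher. Of the genes listed as alcohol dehydrogenase relatives, only Fdh, the formaldehyde dehydrogenase gene, was analysed here. Whether Fdh is related to Fbp2 was not examined, so its values are not a measure of the Fbp2 family. Fdh was not called in any comparison.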
